A study of Mus musculus with 24 samples.

Results

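Liver messages for the uptake of glucose, the steps and control of glycolysis and the entry of fructose were examined in mice fed quercetin, a flavonol of many plant foods. The 8 genes were taken by their symbols in the platform annotation: Slc2a2, Gckr, Pfkl, Pfkfb1, Pfkfb3, Pklr, Ldha and Khk. Of these, 7 had a probe set under a single symbol among the 18193 genes measured, and Pfkfb1 was not analysed here. Each gene was represented by its brightest probe set: 1449067_at for Slc2a2, 1426059_at for Gckr, 1439148_a_at for Pfkl, 1416432_at for Pfkfb3, 1438711_at for Pklr, 1419737_a_at for Ldha and 1449062_at for Khk. Every other probe set of the genes is described as well.

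The animals were male BALB/c mice, an inbred albino strain, 6 weeks old when bought, and ate the purified diet AIN93G for 14 days. The 4 groups of 6 mice ate that diet with no quercetin (control) or with 0.1%, 0.5% or 1.0% quercetin. They were kept on a light cycle turned so that the dark phase fell in the daytime, and the liver was taken under pentobarbital anaesthesia. RNA of each mouse was hybridised to 1 array. The mice were housed 3 per cage and the labels do not say which shared one, so cage and diet cannot be told apart. The tissue was whole liver, in which fewer cells of a type and less RNA per cell cannot be told apart. Hepatocyte markers (Alb, Apoa1, Ttr, Apoc3, Tat and Cps1; 6 of 6 measured) gave summed intensities from 37400 to 41400 over all groups, so the defining markers of the labelled tissue were present in every group.

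Hepatocytes take up glucose through a low-affinity transporter, and the first steps of its use are held back when glucose is scarce. The committed step of glycolysis is made by phosphofructokinase, which a small sugar bisphosphate made by the PFKFB enzymes activates, and pyruvate kinase makes pyruvate at the end of the pathway. Fructose enters below phosphofructokinase through ketohexokinase. In liver, carbohydrate feeding is known to raise the messages of pyruvate kinase and ketohexokinase through the transcription factor ChREBP, which binds paired E-boxes related to CACGTG.

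The promoters of Pklr, Khk and Ldha are printed because Pklr and Khk were the pair of these genes that varied together most closely from mouse to mouse, while Ldha stood on the other side of control at the highest dose. Each run is a RefSeq window of GRCm38.p6 from 250 bases before to 50 bases after an annotated start, 5′ to 3′ on the + strand. Capitals mark the boxes found. For Pklr the window is the one of its 2 annotated starts that held the paired motif (chr3:89136373-89136672). The window of Khk (chr5:30921309-30921608) and 1 of the 2 windows of Ldha (chr7:46845554-46845853) held CACGTG, and these are the ones printed.
Pklr: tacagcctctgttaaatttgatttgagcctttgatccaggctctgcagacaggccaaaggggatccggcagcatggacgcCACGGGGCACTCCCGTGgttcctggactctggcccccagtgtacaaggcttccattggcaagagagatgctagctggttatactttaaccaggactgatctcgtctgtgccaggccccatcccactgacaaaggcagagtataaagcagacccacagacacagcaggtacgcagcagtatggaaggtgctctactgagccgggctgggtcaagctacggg
Khk: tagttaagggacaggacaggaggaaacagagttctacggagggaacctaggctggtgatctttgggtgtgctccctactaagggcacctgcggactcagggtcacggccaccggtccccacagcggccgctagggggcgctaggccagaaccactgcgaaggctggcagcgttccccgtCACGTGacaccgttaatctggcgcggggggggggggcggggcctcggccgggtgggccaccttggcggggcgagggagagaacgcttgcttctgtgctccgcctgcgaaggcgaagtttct
Ldha: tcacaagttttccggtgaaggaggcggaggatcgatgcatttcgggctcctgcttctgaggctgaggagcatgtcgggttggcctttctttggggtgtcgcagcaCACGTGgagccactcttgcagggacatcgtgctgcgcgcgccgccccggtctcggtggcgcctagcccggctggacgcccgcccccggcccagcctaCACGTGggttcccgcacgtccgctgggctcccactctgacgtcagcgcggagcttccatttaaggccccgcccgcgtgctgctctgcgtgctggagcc
Among 32851 such windows of all genes, 7.15% held CACGTG, which reads the same on both strands. Of the genes described here Khk held it once, 71 bases before the start. Ldha held it in 1 of 2 windows, at 145 and at 48 bases before the start. In Pfkfb3, 1 of 2 windows held it as well. The paired form CACGGGNNNNNCCCGTG, which also reads the same on both strands, was found in 1 window (0.00304%), the Pklr window, with the match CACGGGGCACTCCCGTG beginning 170 bases before the start. That pattern was taken from the known element of the Pklr promoter, so its match there was given beforehand and its share of windows says nothing about Pklr. The single box CACGGG, searched on both strands and contained in the paired form, stood in 10.1% of windows. A match is a run of letters in this window and was not tested as a binding site.

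No gene of the set passed the test in any comparison, while several leaned with dose. Levels are quantile-normalised log2(intensity + 1), on which a difference of 1 is a 2-fold change, and differences carry their SE from limma over all 24 arrays. The median intensity of an array, as deposited, lay between 4.78 and 7.58. By their means Khk, Pklr, Gckr and Pfkl were lower than control at 0.5% and 1.0% quercetin, and Pfkfb3 and Ldha were higher. The 95% intervals of Slc2a2, Gckr, Pfkl and Ldha against control included 0 at every dose. At 0.5% the interval of Pklr included 0 as well (-0.66 to 0.06). At 1.0% the mean log2 differences from control were -0.31 for Khk, -0.39 for Pklr, 0.27 for Ldha and 1.5 for Pfkfb3. With limma over all 18193 genes and Benjamini-Hochberg adjustment at 0.05, 0 of 7 genes were called at 1.0% against control, where 0.0220% of all genes were called. At an unadjusted p under 0.05 there were 3 of 7 at 1.0% (Khk, Pklr and Pfkfb3), beside 8.92% of all genes. The smallest adjusted p among the 7 was 0.417.

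The other comparisons gave the same count of 0 called genes among the 7. Against control the share of all genes called was 0% at 0.1% quercetin and 0.0165% at 0.5%, and at an unadjusted p under 0.05 there were 0 and 2 of the 7 (5.11% and 7.65% of all genes). Between the doses, 0.214% of all genes were called for 0.5% against 0.1%, 0.253% for 1.0% against 0.1% and 0.0220% for 1.0% against 0.5%. At an unadjusted p under 0.05 these comparisons gave 2, 4 and 0 of the 7, beside 10.1%, 9.42% and 6.19% of all genes. For any difference among the 4 groups 0.181% of all genes were called and for the slope over dose 0.0989%, with 3 and 4 of the 7 at an unadjusted p under 0.05 (9.49% and 10.9% of all genes). The doses share the control mice, so the values against control are not independent of each other. The median of the 7 log2 differences at 1.0% was -0.18, against -0.0099 over all genes.

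**Figure D1:**
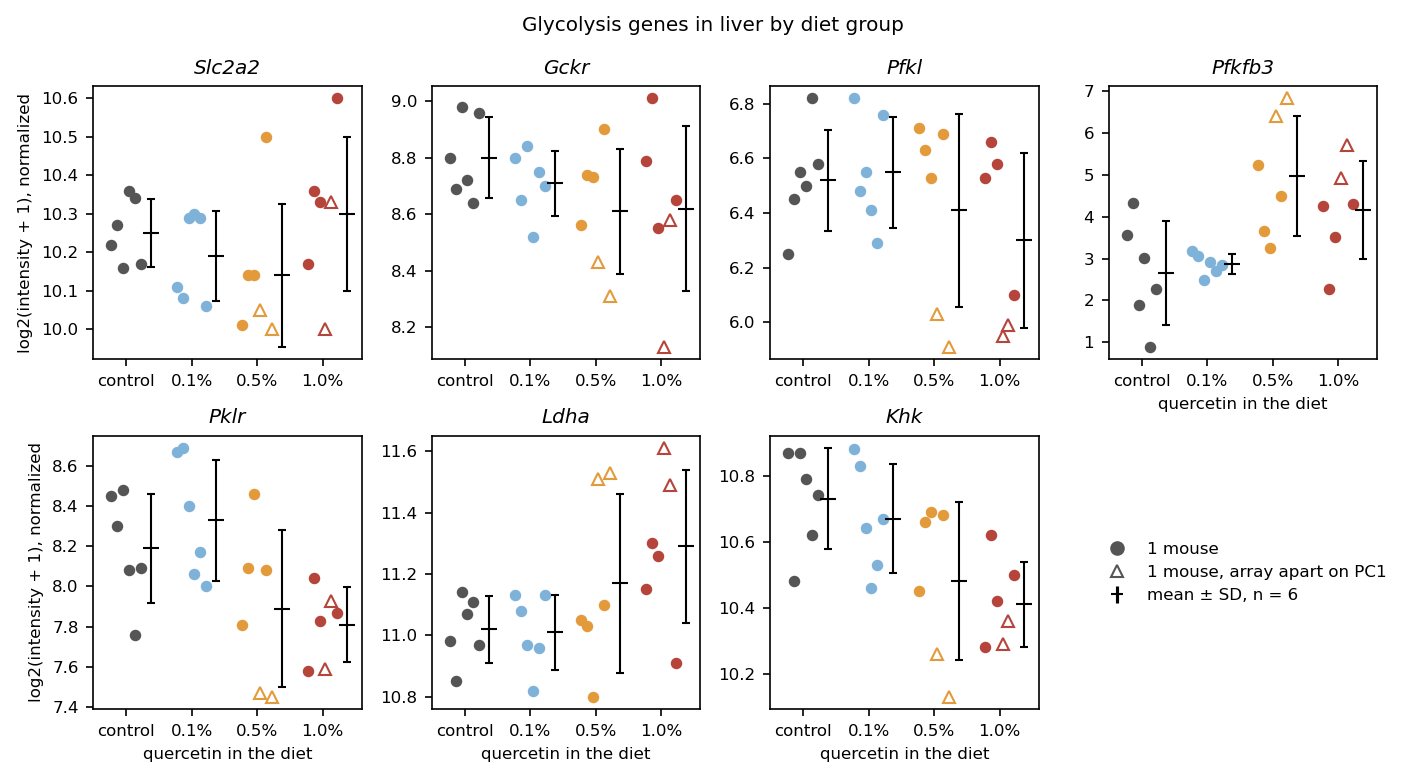
Normalised log2(intensity + 1) of the 7 genes in each of 24 mice, by quercetin in the diet, with the mean and SD of each group of 6. Each panel has its own scale, and open triangles are the 4 arrays set apart by the first principal component. Pklr and Khk lie lower at 1.0%, and the triangles hold the lowest Pfkl and the highest Ldha values.

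Slc2a2 encodes GLUT2, the glucose transporter of the hepatocyte surface. Its log2 level ran from 10.16 to 10.36 in control (median 10.24), from 10.06 to 10.30 at 0.1% (median 10.20), from 10 to 10.50 at 0.5% (median 10.09) and from 10 to 10.60 at 1.0% (median 10.33). The 4 groups overlapped, and the widest spread was at 1.0%. The difference at 1.0% was 0.045 (SE 0.10, 95% interval -0.17 to 0.26), and the slope was 0.056 per 1% quercetin (SE 0.093, adjusted p = 0.884). The sign at 1.0% turned when arrays were centred on their medians (-0.038) and without replicate 6 of the 1.0% group (-0.015).

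Gckr encodes a regulatory protein of glucose metabolism in the hepatocyte nucleus. Log2 levels lay between 8.64 and 8.98 in control (median 8.76), between 8.52 and 8.84 at 0.1% (8.73), between 8.31 and 8.90 at 0.5% (8.65) and between 8.13 and 9.01 at 1.0% (8.61). Both the lowest and the highest of the 24 values were in the 1.0% group, so the groups overlapped. The mean differences from control were -0.086, -0.19 and -0.18 in order of dose (SE 0.13), and at 1.0% the 95% interval ran from -0.44 to 0.083 (adjusted p = 0.731). Without normalization between arrays the difference at 0.5% was 0.036.

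Pfkl encodes the liver subunit of phosphofructokinase. The control mice lay between 6.25 and 6.82 (median 6.52), the 0.1% mice between 6.29 and 6.82 (6.52), the 0.5% mice between 5.91 and 6.71 (6.58) and the 1.0% mice between 5.95 and 6.66 (6.32). At 0.5% 2 mice and at 1.0% 3 mice lay under every control mouse, and the others lay inside the control range. The difference at 1.0% was -0.22 (SE 0.16, 95% interval -0.56 to 0.11, adjusted p = 0.738), and that at 0.5% was -0.11, or 0.099 without normalization between arrays. A second probe set, 1450269_a_at, correlated with the main one at r = 0.54 over the 24 arrays and differed from control by -0.21 at 0.5% and -0.15 at 1.0% (SE 0.12). The third, 1453541_at, was dim, brighter than 48.7% of the probe sets with 1 symbol, and correlated with the main one at r = -0.048.

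Pfkfb3 encodes an enzyme that makes the activator of phosphofructokinase and is known as the inducible form. It had the largest log2 differences of the 7 and was also the dimmest, brighter than 58.9% of the 34945 probe sets with 1 symbol. Levels ran from 0.89 to 4.34 in control (median 2.65), from 2.49 to 3.18 at 0.1% (2.88), from 3.26 to 6.83 at 0.5% (4.86) and from 2.27 to 5.71 at 1.0% (4.28). Every mouse at 0.5% lay above every mouse at 0.1% (limma adjusted p = 0.213), while both higher doses overlapped control. The share of all genes whose ranges lay apart between those doses was not counted. At 0.5% Pfkfb3 was higher than control by 2.31 (SE 0.62), which is 4.97-fold on the log2(value + 1) scale, with all 6 mice above the control mean (adjusted p = 0.476). At 1.0% it was higher by 1.5 (SE 0.62, 2.83-fold) with 5 of 6 mice above that mean (adjusted p = 0.489), and at 0.1% the difference was 0.20. The other probe set, 1456676_a_at, was dimmer, brighter than 36.4% of the probe sets with 1 symbol. It was higher than control by 0.24 at 0.5% and 0.34 at 1.0% (SE 0.64). It correlated with the main probe set at r = 0.63 over the 24 arrays. In these low signals the added 1 weighs on the size, and with 16 added in place of 1 the differences were smaller, at 1.16 for 0.5% and 0.63 for 1.0%.

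Pklr encodes the pyruvate kinase of liver and red cells. Its levels ran from 7.76 to 8.48 in control (median 8.19), from 8 to 8.69 at 0.1% (8.29), from 7.45 to 8.46 at 0.5% (7.95) and from 7.58 to 8.04 at 1.0% (7.85). All 6 mice at 1.0% lay below the mean of control and below the mean of the 0.1% group, although both ranges overlapped theirs. Against control the difference was 0.14 at 0.1%, -0.30 at 0.5% and -0.39 at 1.0% (SE 0.17), and the last had a 95% interval from -0.75 to -0.027 and an adjusted p of 0.524. Against 0.1% the difference at 1.0% was -0.52 (95% interval -0.88 to -0.16, adjusted p = 0.301).

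All 3 Pklr probe sets ran the same way. At 1.0% against control 1421258_a_at differed by -0.53 (SE 0.20, unadjusted p = 0.0169 in limma) and 1421259_at by -0.57 (SE 0.21, unadjusted p = 0.0115), beside -0.39 for the main probe set 1438711_at. They correlated with the main probe set at r = 0.95 and r = 0.896 over the 24 arrays, and neither passed among 34945 probe sets (adjusted p = 0.529 and 0.496). All 3 measure the same RNA samples and are not replicates.

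**Figure D2:**
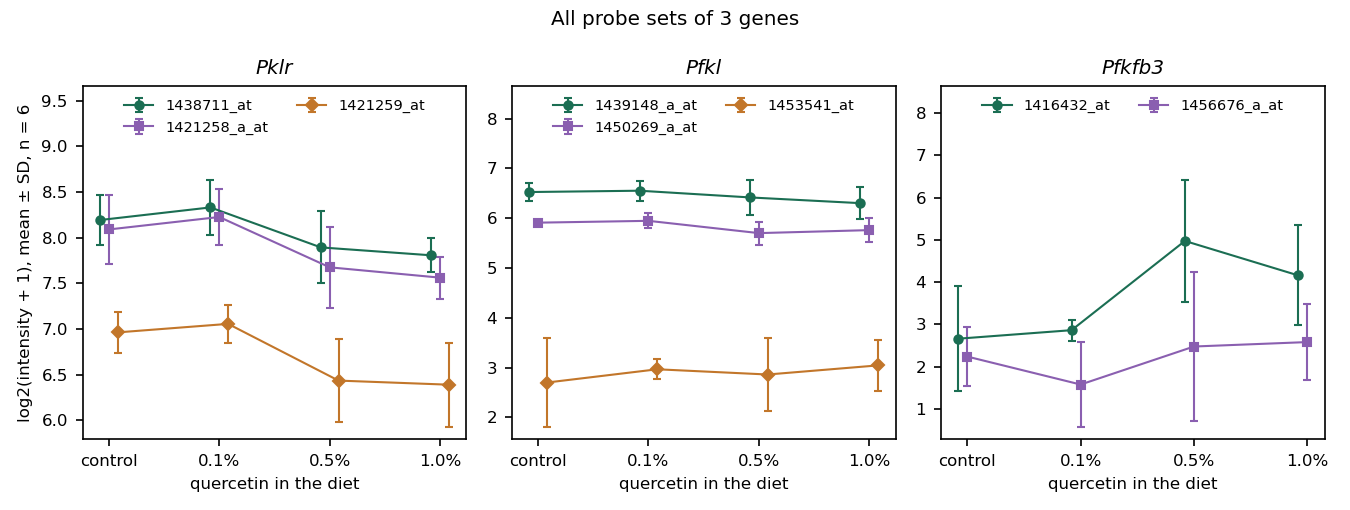
Mean and SD (n = 6) of normalised log2(intensity + 1) for every probe set of Pklr, Pfkl and Pfkfb3, by quercetin in the diet; lines join the groups of 1 probe set. The 3 Pklr probe sets run in parallel, with lower means at 0.5% and 1.0%, while the larger Pfkfb3 difference is in 1416432_at and the dimmer 1456676_a_at spreads widely.

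Ldha encodes a subunit of lactate dehydrogenase, which interconverts pyruvate and lactate. It ran from 10.85 to 11.14 in control (median 11.03), from 10.82 to 11.13 at 0.1% (11.02), from 10.80 to 11.53 at 0.5% (11.08) and from 10.91 to 11.61 at 1.0% (11.28). At 1.0% 5 of 6 mice lay above the control mean, and 1 lay below it. The difference was 0.15 at 0.5% and 0.27 at 1.0% (SE 0.13, unadjusted p = 0.0502 in limma, adjusted p = 0.559). At 0.1% it was near 0, at -0.0073, and its sign changed under several settings.

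Khk encodes ketohexokinase, which phosphorylates fructose. Levels ran from 10.48 to 10.87 in control (median 10.76), from 10.46 to 10.88 at 0.1% (10.66), from 10.13 to 10.69 at 0.5% (10.55) and from 10.28 to 10.62 at 1.0% (10.39). All 6 mice lay below the control mean at 0.5% and again at 1.0%, and both ranges overlapped control through its lowest mice. The difference was -0.25 at 0.5% (95% interval -0.48 to -0.016, adjusted p = 0.629) and -0.31 at 1.0% (95% interval -0.55 to -0.081, adjusted p = 0.417). On the log2(value + 1) scale control stood 1.24-fold above the 1.0% group. Khk had the smallest adjusted p of the 7 genes at 1.0%.

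**Figure D3:**
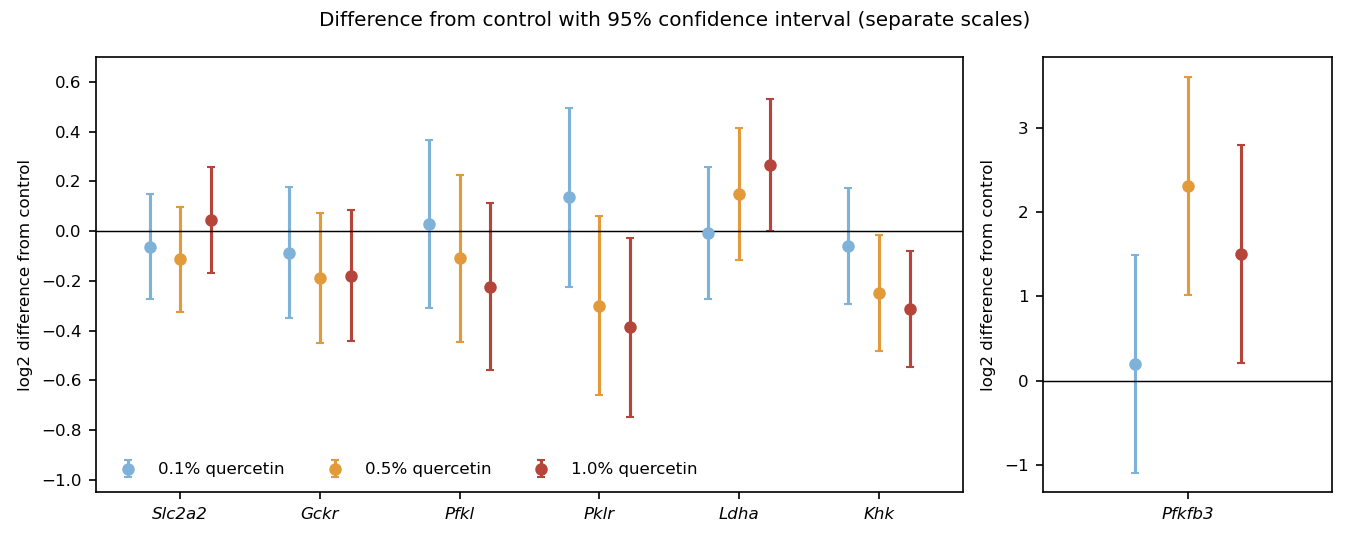
Log2 difference of each dose from control with its 95% confidence interval from limma (6 mice a group), with Pfkfb3 on a separate scale at the right. The interval lies wholly below 0 for Khk at 0.5% and 1.0% and for Pklr at 1.0%, and wholly above 0 for Pfkfb3 at 0.5% and 1.0%. These are unadjusted intervals, and no difference passed after adjustment.

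As a straight line over dose, Khk changed by -0.32 log2 per 1% quercetin (SE 0.099, adjusted p = 0.203), Pklr by -0.49 (SE 0.16, adjusted p = 0.216), Ldha by 0.28 (SE 0.11, adjusted p = 0.329) and Pfkfb3 by 1.73 (SE 0.64, adjusted p = 0.297). The slopes of Gckr and Pfkl were -0.16 (SE 0.11) and -0.25 (SE 0.14). None of these passed. The line is only a partial description, since Pklr at 0.1% lay above control and Pfkfb3 was higher at 0.5% than at 1.0%.

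In 4 of the 24 mice, replicates 4 and 6 at 0.5% and replicates 4 and 5 at 1.0%, the arrays lay far from the rest along the first principal component of all genes, which held 9.15% of the variance. Their distance from the median was at least 55.4, against at most 16 for the other 20. Pfkl lay between 5.91 and 6.03 in these 4 and between 6.10 and 6.71 in the other 8 mice of the same doses, with no overlap. Ldha lay between 11.49 and 11.61 in the 4 and between 10.80 and 11.30 in the 8, also with no overlap. Pfkfb3 averaged 5.97 against 3.87, Gckr 8.36 against 8.74, Pklr 7.61 against 7.97, Khk 10.26 against 10.54 and Slc2a2 10.10 against 10.28, with overlapping ranges. The 4 arrays were picked by their overall profile, so these values are a description with no test. How many of all genes separated the 4 from the 8 was not counted, so the separation cannot be read as particular to Pfkl and Ldha.

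Without the 4 arrays the differences of Pklr and Khk at 1.0% stayed close to their size, and those of Ldha, Pfkfb3, Gckr and Pfkl shrank. At 1.0% against control Pklr differed by -0.36 (adjusted p = 0.622) and Khk by -0.27 (adjusted p = 0.543). Ldha differed by 0.13 (adjusted p = 0.781), Pfkfb3 by 0.92 (adjusted p = 0.703), Gckr by -0.047, Pfkl by -0.057 and Slc2a2 by 0.11. At 0.5% the differences became -0.084 for Pklr, -0.11 for Khk and 1.5 for Pfkfb3, and the sign turned for Pfkl (0.11) and Ldha (-0.026). What set the 4 arrays apart was not tested.

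The labels number the mice of each diet. Replicates 4 to 6 were compared with 1 to 3 because earlier results of these data showed genes split between these sets. The sets were thus not chosen independently of the values compared. Whether these sets are cages is not in the labels, and the 4 outlying arrays all belong to replicates 4 to 6. Pklr was lower in replicates 4 to 6 by the means of 4 of 4 diets, with log2 differences of -0.43 in control, -0.51 at 0.1%, -0.45 at 0.5% and -0.021 at 1.0% (SE 0.19). Pfkfb3 was higher in replicates 4 to 6 at 0.5% (1.86) and 1.0% (1.63) and lower in control (-1.20, SE 0.73). Pfkl was lower in them at 0.5% (-0.42) and 1.0% (-0.57, SE 0.18, adjusted p = 0.153). With limma 0 of 7 genes passed within any diet, where 0.00550% of all genes were called in control, 0.00550% at 0.1%, 0.132% at 0.5% and 0.0605% at 1.0%. At an unadjusted p under 0.05 there were 1, 1, 4 and 2 of the 7 in order of dose, beside 4.48%, 4.85%, 9.54% and 14.1% of all genes. The difference between the sets in each dose was also tested against that in control, and 0 of 7 genes passed (0%, 0% and 0.0110% of all genes in order of dose). At an unadjusted p under 0.05 this gave 0, 2 and 2 of the 7, beside 4.60%, 7.57% and 10.4% of all genes. With the sets as a block, no gene of the 7 passed for any diet comparison.

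Pklr and Khk varied together from mouse to mouse. Over all 24 arrays Pearson r was 0.847 (permutation p = 1e-05, the smallest these permutations can give, adjusted p = 0.00021 over 21 pairs) and Spearman rho was 0.837 (permutation test, adjusted p = 0.00021). Because the 4 outlying arrays form a cluster of their own with too few samples for a correlation, the other 20 arrays were also taken alone, a setting chosen after the data were seen. There Pearson r was 0.758 (permutation p = 0.00016, adjusted p = 0.00336 over 21 pairs) and Spearman rho was 0.743 (permutation p = 0.00024, adjusted p = 0.00504). Leaving out the 2 arrays with the most extreme Pklr values gave r = 0.686. Of the 21 pairs of the 7 genes, Pklr with Khk was the only one that passed over the 20 arrays, whereas 14 pairs passed (6 positive and 8 negative) when the 4 arrays were included. As deviations from the group means over 24 arrays, Pklr with Khk gave r = 0.798 (permutation test, adjusted p = 0.00042). Pfkfb3 with Khk gave r = -0.708 over all 24 arrays (permutation test, adjusted p = 0.00084; rho = -0.588, adjusted p = 0.0165; r = -0.556 with the 2 most extreme Pfkfb3 arrays left out) and r = -0.582 as deviations from the group means (permutation test, adjusted p = 0.0118). It did not pass without normalization between arrays (r = -0.204) or with arrays centred on their medians (r = -0.372). It gave r = -0.41 over the 20 arrays (permutation p = 0.0723, adjusted p = 0.31; rho = -0.31, permutation p = 0.185, adjusted p = 0.502; r = -0.437 with the 2 most extreme Pfkfb3 arrays left out), which did not pass. The arrays share their scaling, which can move genes together.

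**Figure D4:**
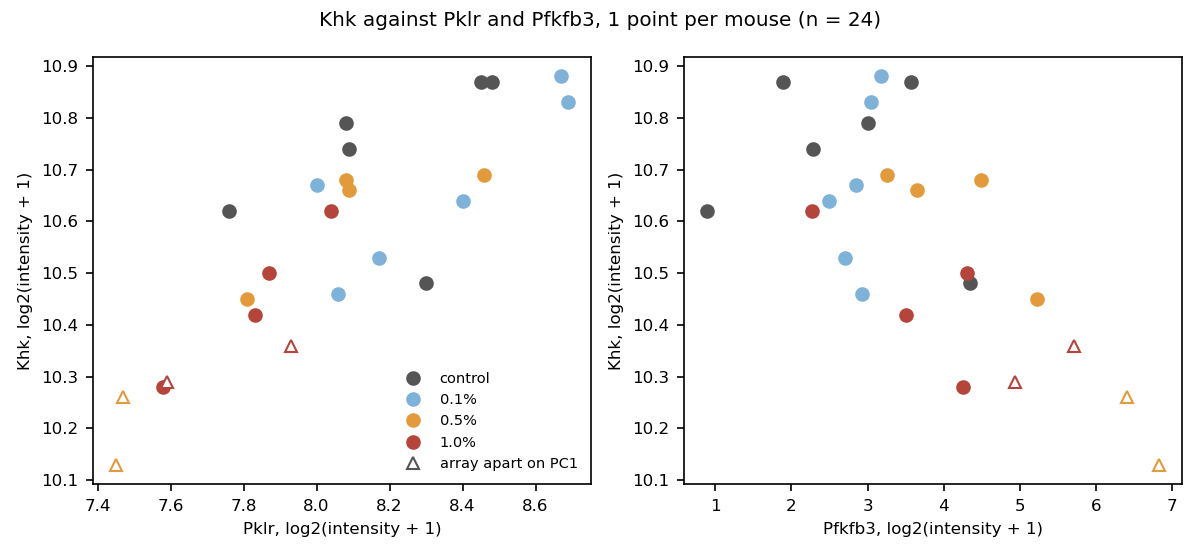
Khk against Pklr (left) and against Pfkfb3 (right), normalised log2(intensity + 1), 1 point per mouse coloured by diet, with open triangles for the 4 outlying arrays. Khk follows Pklr among the filled points too (r = 0.758 over 20 arrays), while the downward trend against Pfkfb3 (r = -0.708 over 24 arrays) rests in part on the triangles (r = -0.41 over the 20 others).

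The 2 genes most like each member were taken by Pearson r over the 24 arrays among 9095 genes brighter than the median gene, as a description. For Pklr these were Acss2, a cytosolic acetyl-CoA synthetase (r = 0.932, and 0.917 over the 20 arrays), and Fasn, fatty acid synthase (0.923 and 0.887). For Khk they were Elovl5, a fatty acid elongase (0.888 and 0.836), and Acsl5, an acyl-CoA synthetase (0.886 and 0.836). At 1.0% against control Fasn differed by -0.88 (SE 0.36, adjusted p = 0.481), Acss2 by -0.42 (SE 0.21) and Elovl5 by -0.30 (SE 0.12), and none passed. For Slc2a2 the nearest were Gys2, the liver glycogen synthase (0.745 and 0.68), and Fam160b1 (0.711 and 0.726).

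The genes nearest to the other members followed them less closely once the 4 arrays were left out. Pfkfb3 had Hspb8, a small heat shock protein gene (0.895, and 0.734 over the 20 arrays), and Coq10b (0.888 and 0.741). Ldha had Slc25a22, a mitochondrial glutamate carrier (0.903 and 0.654), and Lrg1, a secreted glycoprotein of the acute phase (0.901 and 0.713). Gckr had Atxn2 (0.87 and 0.664) and Ftcd, a liver enzyme of folate and histidine metabolism (0.868 and 0.698), and Pfkl had Slc25a42 (0.879 and 0.643) and Ift46 (0.856 and 0.668).

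Among the other enzymes of glycolysis, 17 of 22 listed genes were measured, and with limma none passed at 1.0% against control. At an unadjusted p under 0.05, 3 were higher and 1 lower, and the median difference was -0.046 against -0.0099 over all genes. Aldoa, a fructose-bisphosphate aldolase, ran from 7.06 to 7.33 in control and from 7.30 to 8.22 at 1.0%, a difference of 0.44 (SE 0.16, adjusted p = 0.431). Hk1, a hexokinase of most tissues other than liver, differed by -0.50 (SE 0.20, adjusted p = 0.469). Pfkfb2 and Pfkfb4, the relatives of Pfkfb3, were higher by 0.57 and 0.91, and both were dimmer than the median gene. Without the 4 outlying arrays the difference of Aldoa was 0.19.

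The lists beside glycolysis held no gene that passed at 1.0% against control either. In fructose and sorbitol handling 5 of 8 genes were measured with a median of -0.032, and Fbp2, a fructose bisphosphatase, was higher by 0.99 at a dim signal. Of the genes for the fate of pyruvate and lactate, 15 of 16 were measured with a median of -0.065. Pdk1, a kinase that inhibits pyruvate dehydrogenase, ran from 6.55 to 6.96 in control and from 6.17 to 6.50 at 1.0%, with no overlap. Its difference was -0.33 (SE 0.11, limma adjusted p = 0.373). It was named for its small p in this comparison, and the share of all genes without overlap was not counted. Pdk4, a kinase of the same kind, differed by -0.73 (SE 0.39). In the pentose phosphate pathway 7 of 8 were measured with a median of -0.13, and Pgd, 6-phosphogluconate dehydrogenase, differed by -0.42 (SE 0.19, adjusted p = 0.517).

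The regulators of hepatic glycolysis leaned both ways. Of 15 genes 13 were measured, and at 1.0% 2 were higher and 2 lower at an unadjusted p under 0.05, with a median of -0.088. Irs1, an adaptor of the insulin receptor, ran from 6.85 to 7.44 in control and from 5.51 to 6.72 at 1.0% with no overlap. Like Pdk1 it was named for its small p in this comparison, and the share of all genes without overlap was not counted. Its difference was -0.80 (SE 0.26, limma adjusted p = 0.379) and its slope was -1.08 per 1% (SE 0.27, limma adjusted p = 0.0977). Srebf1, which encodes a transcription factor of insulin-driven lipid synthesis, ran from 7.77 to 8.44 in control and from 6.18 to 8.25 at 1.0% (difference -0.83, SE 0.34, adjusted p = 0.468). Hnf4a and Foxo1, transcription factors of hepatocytes, were higher by 0.37 (SE 0.17) and 0.26 (SE 0.12). Without the 4 outlying arrays the differences at 1.0% were -0.50 for Irs1, -0.36 for Srebf1, 0.13 for Hnf4a and 0.28 for Foxo1.

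Of the carbohydrate-response targets 5 of 5 were measured, Pklr and Khk among them, and 5 of 5 lay below control at 1.0% with a median of -0.32, beside 51.6% of all genes below control. The difference was -0.52 (SE 0.56) for Fgf21, a liver hormone, -0.32 (SE 0.26) for Arrdc4 and -0.024 (SE 0.27) for Txnip, both arrestin-related genes known to follow glucose. Txnip turned to 0.018 without normalization between arrays, leaving 4 of 5 below control. Without the 4 outlying arrays the differences of Fgf21 and Txnip were larger, at -0.98 and -0.38. Those of Arrdc4, Pklr and Khk were somewhat smaller, at -0.29, -0.36 and -0.27. At 0.5% Fgf21 differed by -1.48 (SE 0.56, adjusted p = 0.563) and Txnip by -0.70 (SE 0.27, adjusted p = 0.563). At that dose 4 of 5 lay below control and 1 above it, Arrdc4 (mean 3.79 against 3.71 in control). Txnip did not follow dose, with means of 8.09 in control, 7.49 at 0.1%, 7.39 at 0.5% and 8.06 at 1.0%. Of the hypoxia targets 9 of 9 were measured, with a median of 0.078. At an unadjusted p under 0.05 in limma 2 were higher and 2 lower at 1.0% against control. Pdk1, at -0.33, belongs to this list as well. Bnip3, a mitophagy receptor gene, ran from 9.31 to 9.74 in control and from 9.42 to 10.65 at 1.0% (difference 0.57, SE 0.17, adjusted p = 0.365), with a slope of 0.74 per 1% (SE 0.17, adjusted p = 0.0725). Without the 4 outlying arrays that difference from control was 0.32. Against 0.1% Bnip3 rose by 0.82 (SE 0.17, limma adjusted p = 0.0411), where 0.253% of all genes were called. Its range at 0.1%, from 9.10 to 9.37, lay under every mouse at 1.0%, and the share of all genes apart in this way was not counted. The hypoxia list as a whole did not rise in that comparison. Its median was -0.173, against -0.0195 over all genes, with 4 of 9 genes above 0 and 5 below. Bnip3 was the 1 gene of these lists that passed for any pair of diets or the slope. That call was lost in 5 of 12 alternatives (adjusted p from 0.00242 to 0.439 over the 12; 0.0778 without the 4 outlying arrays and 0.439 without normalization between arrays) and in 17 of 24 fits that left out 1 mouse. At 1.0% against control Slc2a1, the glucose transporter of most cells, was higher by 0.50 (SE 0.23), and Egln3, an oxygen-sensing hydroxylase, differed by -0.34 (SE 0.16). The Slc2a1 difference ran from 0.0305 to 0.7336 over 12 alternatives. Slc2a1 did not follow dose, with means of 4.59 in control, 5.32 at 0.1%, 4.81 at 0.5% and 5.09 at 1.0%.

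**Figure D5:**
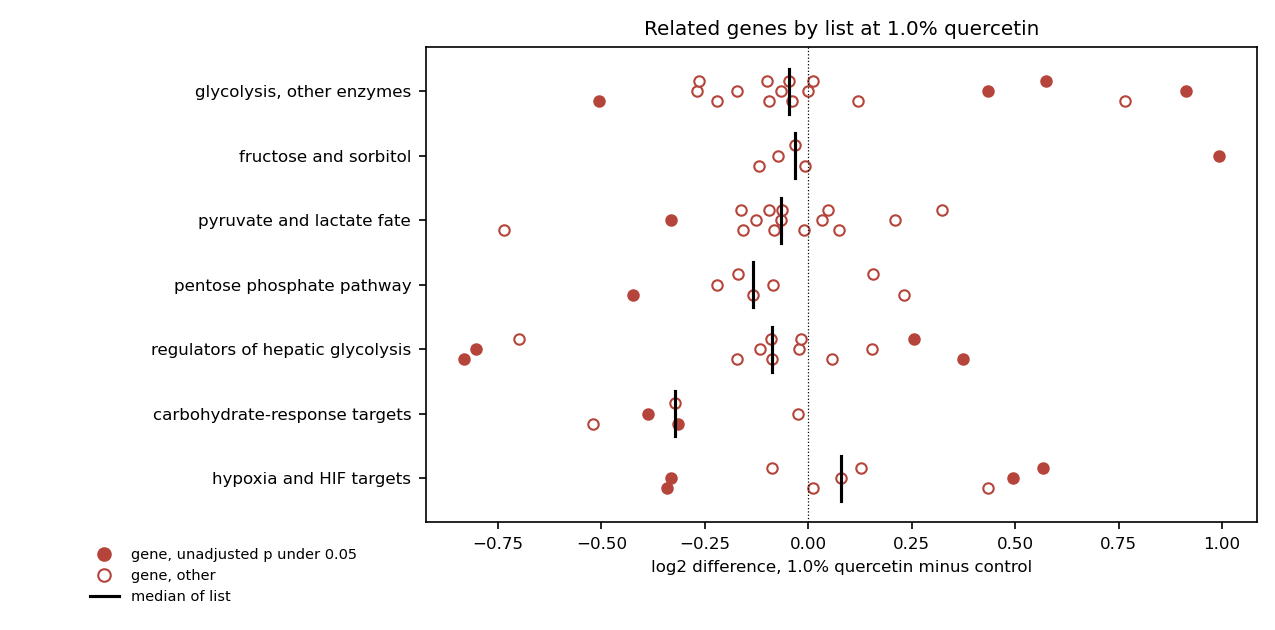
Log2 difference of each measured gene between 1.0% quercetin and control, by list, with the median of each list as a bar. Filled points have an unadjusted p under 0.05 in limma, and no gene passed after adjustment. The 5 carbohydrate-response targets, which include Pklr and Khk, lie below 0 (Txnip only just, at -0.024, and at 0.018 without normalization between arrays), while the other lists straddle it.

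Markers of other cells were set beside these values. The neutrophil markers (S100a8, S100a9, Ngp, Camp and Ltf; 5 of 5 measured, Camp dim) summed to intensities from 38.7 to 66.9 in control, 43.1 to 67.1 at 0.1%, 48.2 to 317 at 0.5% and 41.0 to 128 at 1.0%. Their higher ends lay in the same diets as those of Pfkfb3 and Ldha. The medians of the sums matched less well, at 43.3 in control, 62.1 at 0.1%, 65.9 at 0.5% and 75.2 at 1.0%. At 0.1% Pfkfb3 and Ldha differed from control by only 0.20 and -0.0073. Array by array the log2 sum correlated with Pfkfb3 at r = 0.725 for the neutrophil markers, -0.567 for the Kupffer cell markers and -0.585 for T and B cell markers. These are descriptions over 24 arrays that share their scaling and include the 4 outlying arrays. Kupffer cell markers summed from 517 to 610 in control, 484 to 592 at 0.5% and 478 to 616 at 1.0%. The part of these cells in the differences was not tested.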

How the data were processed

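RNA of 24 livers was measured on Affymetrix mouse arrays, 1 per mouse. The authors deposited 1 table of linear intensity values for 45101 probe sets, made from biotin-labelled cRNA per the labels' protocols. How scanner signals were corrected and summarised is not given in the sources used here. Probe sets were named through the platform annotation: 34945 had 1 symbol and were used, and 932 had several and were left out. The brightest probe set stood for each of 18193 genes.

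Values were taken as log2(intensity + 1) and quantile-normalised, because array medians differed. Skipping that step shifted the median gene, relative to control, by 0.111 (0.1%), 0.146 (0.5%) and 0.0541 (1.0%). All 24 arrays entered 1 fit in limma 3.58.1 (R 4.3.3; lmFit and eBayes, two-sided, Benjamini-Hochberg over all genes, 0.05). Correlations used 100000 permutations.

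The members, lists and tests were chosen with earlier results of these data known. All members were named; from each pathway list, up to 4 genes with the smallest p at 1.0% against control; and, for likeness, the 2 genes with the highest r per member. Txnip, and the list genes' values at 0.5%, were added after they were seen. Promoter windows came from RefSeq (GRCm38.p6).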

Additional observations from a re-analysis of the deposited data

Results flagged for a closer look

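Slc2a2, the liver glucose transporter, had a single high mouse at 0.5% quercetin. Replicate 5 of that group was at 10.50 on the log2 scale, and the next highest of its 6 mice was at 10.14. The gap was 0.725 of the whole range of the group, above the 95% limit of Dixon's test for 6 samples. This was 1 of 28 combinations of gene and diet examined, and chance alone exceeds the limit in about 1 in 20. The array was not among the 4 that lay far from the rest, and no explanation was tested.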

How the results depend on the processing

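No member passed under any of the 12 alternatives or the 24 fits that each left out 1 mouse; over 42 differences and slopes the smallest adjusted p was 0.0638, and 39 of 1505 recomputed values changed sign, none past the threshold. The number of arrays and the dim signal of Pfkfb3 limit these results. The causes of the changes below were not tested.

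Without normalization between arrays the log2 difference turned at 0.1% against control for Ldha (0.0947), Slc2a2 (0.0319) and Khk (0.0233), at 0.5% against control for Gckr (0.0356), Pfkl (0.0991) and Slc2a2 (0.1009), and at 0.5% against 0.1% for Gckr (0.0359) and Slc2a2 (0.069). With arrays centred on their medians Pfkl turned at 0.1% (-0.0093) and 0.5% (0.0131) against control and at 0.5% against 0.1% (0.0224), Slc2a2 at 0.5% (0.0149) and 1.0% (-0.0381) against control and at 0.5% against 0.1% (0.1112), and Gckr at 0.5% against 0.1% (0.078). Pfkfb3 at 0.1% turned with a pseudocount of 16 (-0.0225) and as the mean of all probe sets (-0.2285). Txnip at 1.0% against control turned without normalization (0.0182) and as the mean of all probe sets (0.065).

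Without the 4 outlying arrays Pfkl turned at 0.5% against control (0.114) and against 0.1% (0.085), Ldha likewise (-0.0264 and -0.0191), Gckr at 0.5% (0.0217) and 1.0% (0.0395) against 0.1%, and Slc2a2 at 0.5% against 0.1% (0.0064). Fbp1, of the fructose list, turned at 1.0% (0.0082). Without the 2 arrays with the highest 18S ribosomal signal Slc2a2 turned at 1.0% (-0.0146) and in its slope (-9e-04). Of the 21 relations between members 14 passed over all arrays, 7 with arrays centred on their medians and 1 without the 4 outlying arrays.

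With 1 mouse left out at a time, the difference at 0.1% against control ran from -0.0252 to 0.0878 for Pfkl, from -0.1524 to 0.5375 for Pfkfb3 and from -0.042 to 0.0315 for Ldha. Slc2a2 at 1.0% ran from -0.0146 to 0.105 and its slope from -0.0086 to 0.1034, and Gckr at 1.0% against 0.1% from -0.1714 to 0.005. Among list genes at 1.0% against control, Txnip ran from -0.1693 to 0.1068, Tkfc from -0.2063 to 0.0071 and Fbp1 from -0.0611 to 0.0074.

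Mice of different diets share replicate numbers. With the replicate number as a block 0 of 7 members passed in each comparison, and among all genes 0 were called at 0.5% and 4 at 1.0% against control, and 18 for the slope. Over 36 pairs of arrays with the same number, the correlation of deviations from the group means ran from -0.0641 to 0.111 (median 0.00392). Of 24 arrays, 4 correlated best with their own number. These correlations cover whole profiles, so they cannot tell whether the number marks something shared that touches few genes.

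Among all genes the number called for 1.0% against control was 4, and 0 without normalization, 0 without the 4 outlying arrays, 2 with centred arrays and 7 with the mean of all probe sets. For the slope it was 18, and 0 without normalization, 103 with a pseudocount of 16, 129 with dim genes left out, 59 with the sets of 3 replicates as a block and 85 with a trended and robust prior. For 0.5% against 0.1% it was 39 (7 to 100 over the alternatives), for 1.0% against 0.1% 46 (6 to 124), for any difference among the groups 33 (4 to 104) and for 0.5% against control 3 (0 to 7). With 1 mouse left out these ran from 4 (without replicate 6 at 0.1%) to 59 (replicate 2 at 0.5%), from 18 (replicate 5 at 0.1%) to 62 (replicate 6 at 0.5%), from 17 to 49 and from 0 to 6. The slope ran from 4 (without replicate 3 at 1.0%) to 61 (replicate 2 at 1.0%), and 1.0% against control from 4 to 7.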
